A study of Mus musculus with 100 samples.

Results

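Kdo2 lipid A (KLA), the lipid part of endotoxin, activates macrophages through Toll-like receptor 4. The regions described here are distal regions of open chromatin in mouse bone marrow-derived macrophages (BMDMs) at which the acetylation of histone H3 on lysine 27 (H3K27ac) was lower after KLA than before. They were chosen in the H3K27ac ChIP-seq table of the Pgc1b experiment by 3 conditions. The listed distance to the nearest transcription start site (TSS) was over 2000 bp, the mean of the Pgc1b flox/flox libraries treated with vehicle (flox Veh) was 40 or more tags per 10000000 library tags (tags per 10 M), and the ratio of the flox KLA mean to the flox Veh mean, each plus 5, was 0.4 or less. This gave 1935 regions (the members), which were 6.5% of the 29767 regions of the table and 20.8% of the 9292 distal regions that had the same minimum in flox Veh. The remaining 7357 of these 9292 are called other distal regions below and serve for comparison.

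All libraries came from adult C57BL/6 mice, with 2 biological replicates per group. The Pgc1b experiment had Pgc1b flox/flox BMDMs without Cre (flox) and with LysM-Cre (flox_Cre), which deletes in myeloid cells, each with Veh or with KLA for 6 h, the time of KLA in every table used here but the PGC1β table with DMSO, whose labels give none. The NCoR experiment had BMDMs of NCoR flox/flox mice, labelled WT, and of NCoR flox/flox mice with LysM-Cre, labelled NKO, with Veh or KLA, so both carried the floxed alleles. The inhibitor experiment had wild-type BMDMs with DMSO and Veh, with DMSO and KLA, and with the HDAC3 inhibitor RGFP966 and KLA, and no group with RGFP966 and Veh was analysed. Per the paper, RGFP966 was added when serum starvation began, before KLA. Whether it changed H3K27ac before KLA was not tested. Binding of NCoR, HDAC3, p65, Fosl2, PU.1, PGC1β, ERK1 and p300 was measured in wild-type BMDMs with Veh or KLA, and PGC1β also in a second table with DMSO. The values here measure chromatin and not the deleted exons, so the deletions of Pgc1b and NCoR were not checked. Per the labels all cells in these groups were BMDMs, and the promoters of 8 of 8 macrophage marker genes held 40.4 to 634 tags of H3K27ac per 10 M in flox Veh and a PU.1 peak each. No promoter region of a T cell, B cell, mast cell and basophil, fibroblast or endothelial marker was in the table, while 1 neutrophil marker (33.6 tags per 10 M), 2 dendritic cell markers (1.67 and 5.44) and 2 erythroid markers (3.83 and 52.6) had one. Promoter PU.1 peaks were not limited to macrophage markers, since 3 of 5 neutrophil markers also had one. So did 1 of 4 T cell, 1 of 4 B cell, 1 of 3 dendritic cell, 1 of 3 endothelial and 1 of 3 erythroid markers.

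H3K27ac marks active enhancers and promoters and is written by acetyltransferases such as p300. NCoR is a corepressor that holds the deacetylase HDAC3 in a complex and brings it to chromatin through nuclear receptors and other DNA-bound factors, and PGC1β is better known as a coactivator. PU.1 opens macrophage enhancers together with factors of the AP-1, C/EBP and RUNX families, while p65 (an NFκB subunit) and Fosl2 (an AP-1 subunit) are signal-dependent.

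The central 200 bp of 7 members are shown to make visible which letters lie in these regions and which do not. The set holds 4 of the members with the lowest ratios or largest gains with RGFP966 (1700027F06Rik, Cd300a, Cdc42ep3 and Foxb2), 1 region without any searched motif (Lyzl4) and 2 regions of clusters near 1 gene (Mef2a and Klf4). Regions are named here and below by the nearest gene listed in the file, which need not be the gene they act on. Sequences are the plus strand of mm10 from RefSeq (GRCm38.p6), and capitals mark matches to the motifs searched.
1700027F06Rik, chr6:124375570-124375769: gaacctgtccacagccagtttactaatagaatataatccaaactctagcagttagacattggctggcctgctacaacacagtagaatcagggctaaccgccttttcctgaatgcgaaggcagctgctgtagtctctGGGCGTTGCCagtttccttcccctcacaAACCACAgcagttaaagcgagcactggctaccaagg
Cd300a, chr11:114903395-114903594: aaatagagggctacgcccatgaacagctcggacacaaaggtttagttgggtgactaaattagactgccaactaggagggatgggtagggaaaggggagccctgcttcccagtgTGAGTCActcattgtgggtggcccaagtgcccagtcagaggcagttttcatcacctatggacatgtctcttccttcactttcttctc
Cdc42ep3, chr17:79347317-79347516: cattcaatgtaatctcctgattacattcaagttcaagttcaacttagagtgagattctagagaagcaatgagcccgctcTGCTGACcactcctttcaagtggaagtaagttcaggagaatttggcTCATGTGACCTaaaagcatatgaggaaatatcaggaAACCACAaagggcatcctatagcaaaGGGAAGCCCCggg
Foxb2, chr19:16898608-16898807: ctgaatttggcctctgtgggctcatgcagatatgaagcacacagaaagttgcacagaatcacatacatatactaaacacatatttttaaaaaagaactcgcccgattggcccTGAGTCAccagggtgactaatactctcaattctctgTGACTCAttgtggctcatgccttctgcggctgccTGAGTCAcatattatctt
Lyzl4, chr9:121636291-121636490: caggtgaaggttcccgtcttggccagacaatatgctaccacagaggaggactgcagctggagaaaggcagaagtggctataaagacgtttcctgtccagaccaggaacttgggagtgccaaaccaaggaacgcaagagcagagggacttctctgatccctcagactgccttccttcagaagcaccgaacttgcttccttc
Mef2a, chr7:67459963-67460162: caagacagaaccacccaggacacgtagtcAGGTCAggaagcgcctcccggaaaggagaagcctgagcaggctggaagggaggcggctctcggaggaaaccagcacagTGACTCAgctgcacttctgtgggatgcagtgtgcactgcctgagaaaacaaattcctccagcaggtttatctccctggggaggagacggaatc
Klf4, chr4:55730369-55730568: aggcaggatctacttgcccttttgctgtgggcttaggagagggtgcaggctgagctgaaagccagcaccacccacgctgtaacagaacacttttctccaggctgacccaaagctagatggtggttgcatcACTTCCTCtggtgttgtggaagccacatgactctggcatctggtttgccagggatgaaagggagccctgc
The capitals mark an NFκB and a RUNX match for 1700027F06Rik, 1 AP-1 match for Cd300a and 3 for Foxb2. Mef2a has an AP-1 and a nuclear receptor match, and Klf4 a PU.1 match. Cdc42ep3 has matches to NFκB, MiT/TFE, RUNX, MAF and the nuclear receptor site. In Lyzl4 no searched motif was found, which says only that these letters are not in this window.

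The median distance of members to the TSS was 27144 bp (interquartile range 11568 to 65472), against 21401 bp for other distal regions, and 281 members (14.5% against 10.7%) lay more than 100 kb away. Intergenic sequence held 920 members (47.5% against 42.3%) and introns 937 (48.4% against 53.3%), with 24 near transcription termination sites, 22 in 3′ UTRs, 21 in exons, 7 in non-coding genes and 4 in 5′ UTRs. The 1935 windows of 1000 bp formed 1787 separate stretches, since 135 stretches held 2 or more overlapping windows, which share tags. They had 1335 different nearest genes, of which 392 had 2 or more members.

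The values that chose the members are a description. The median over members was 127 tags per 10 M in flox Veh (range 40 to 740) and 32.1 in flox KLA (2.15 to 275), and the median ratio was 0.309 (lowest 0.0578). The other distal regions had nearly the same median in flox Veh, 125, and a median ratio of 0.758. Of all tested regions, 25.6% were called lower with KLA in flox by the criteria used below. The lowest ratios were at 2 regions near 1700027F06Rik, at Il1rl1 (the receptor of interleukin-33), at 2 overlapping windows each near Adam6b and Chn2, and near Foxb2, Klf2 and Lyzl4. In both Adam6b windows the central 200 bp consist of short tandem repeats, at which read mapping was not checked. The highest flox Veh means were near Tgif1 (2 overlapping windows), Amz1, Fat3, E030018B13Rik, Umps, Gpx1, Itpr2, Phb and Ifnar2. Just inside the threshold were regions near Os9, Cdk17 and Gm9949, with ratios of 0.400, 0.399 and 0.399, and just outside it regions near Gas7 (435 in flox Veh, 171 in flox KLA), Abca1 (346 and 136) and Abcd2 (45.1 and 15.1).

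The first question was whether the lower acetylation recurred in libraries that the choice had not used. In flox_Cre BMDMs the median over members was 113 and 108 tags per 10 M in the Veh libraries and 26.7 in both KLA libraries. In wild-type BMDMs it was 126 and 121 with DMSO and Veh, and 31.7 and 26.9 with DMSO and KLA. In the NCoR experiment, counted over narrower regions (median 290 bp), it was 13.2 and 13.8 in WT Veh and 6.29 and 6.89 in WT KLA. In NKO it was 17.7 and 16.3 with Veh and 7.43 and 7.64 with KLA. The KLA libraries lay below the Veh libraries in each of the 4 settings, with no overlap of these medians. At the other distal regions the Veh and KLA libraries lay closer together. Their medians were 117 and 114 in flox_Cre Veh and 70.1 and 69.7 in flox_Cre KLA, and 125 and 123 against 101 and 83.3 in the DMSO libraries. In WT they were 15.8 in both Veh libraries and 15.7 and 17.9 in the KLA libraries, and in NKO 22.1 and 20.3 with Veh and 15.93 and 15.97 with KLA.

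**Figure D1:**
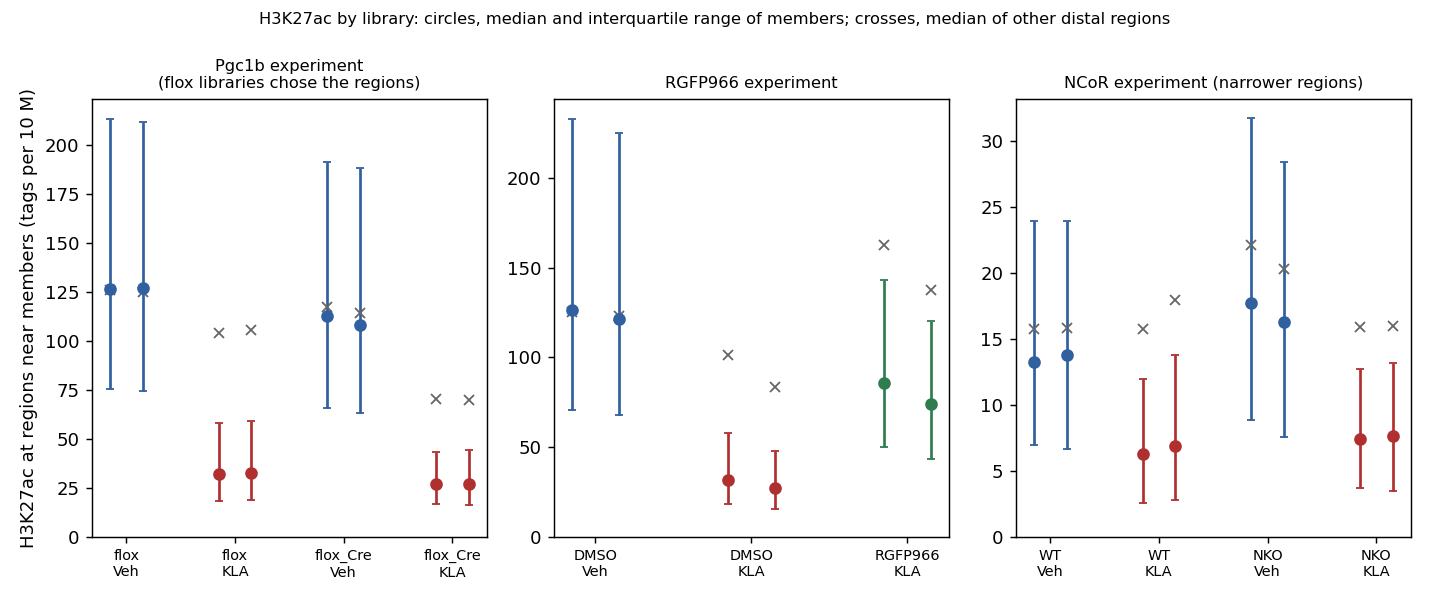
H3K27ac in each library in tags per 10 M (y axis, linear) by group (x axis), with circles for the median and bars for the interquartile range of regions near members, and crosses for the median of other distal regions. Circles of the KLA libraries lie near 30 in the first 2 experiments and near 7 in the NCoR experiment, below the Veh libraries of the same experiment, and the 2 RGFP966 libraries lie between at 85.6 and 73.8.

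Each comparison was tested over its whole table with edgeR's quasi-likelihood test and Benjamini-Hochberg adjustment, after scaling by library totals. A region was called when the adjusted p was under 0.05 and the change over 2-fold. Log2 fold changes of single regions are given ± the standard error (SE). In flox_Cre, 1877 of 1935 members (97.0%) were called lower and 0 higher, against 32.5% of all tested regions lower and 4.18% higher, with a median log2 fold change of -2.03, and no member had a fold change above 0. With DMSO, 1815 of 1933 tested members (93.9%) were called lower and 0 higher, against 28.1% and 6.73% of all regions, with a median of -2.02, and 2 members had a fold change above 0. Called lower in both were 1771 of 1933 members (91.6%), and 14 were called in neither. These joint counts were not made over all regions. Among other distal regions 40.2% were called lower in flox_Cre (median -0.79) and 27.5% with DMSO (median -0.50).

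The NCoR experiment covered fewer members, since only 1096 had a region with a centre within 500 bp, and 896 of 1061 distinct regions passed the filter on low counts. In WT, 206 of 896 (23%) were called lower with KLA and 0 higher, against 3.72% and 6.49% of all tested regions, with a median of -0.96 (other distal regions 0.09), and 2 were above 0 at an unadjusted p under 0.05. In NKO, 318 (35.5%) were called lower and 0 higher, against 7.96% and 2.75%, with a median of -1.23 (other distal regions -0.37, of which 10.6% were called lower) and 1 above 0 at an unadjusted p under 0.05. Of 927 members tested in all 4 settings, 805 (86.8%) had a fold change below 0 in all of them and 136 were called lower in all. Neither count was made over all regions. The share called in WT was 11.3% and 12.5% when WT Veh replicate 1 or 2 was left out, and the share in NKO was 23.2% without NKO Veh replicate 1.

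The median of all tested regions was itself below 0 in flox_Cre (-0.62), with DMSO (-0.42) and in NKO (-0.20), and was 0.13 in WT. TMM scaling, which moves the typical region to no change (all-region medians between -0.01 and 0.00), left 1485 members called lower in flox_Cre (median -1.41), 1584 with DMSO, 263 in WT and 257 in NKO, and called 0 higher in each, as did DESeq2 (1477, 1520, 213 and 220 lower). Over all regions TMM called 3598 lower and 2712 higher in flox_Cre, where library totals gave 8189 and 1054. The same pairs were 4316 and 3124 against 7038 and 1686 with DMSO, 959 and 895 against 688 and 1200 in WT, and 984 and 794 against 1472 and 508 in NKO.

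The region 11183 bp upstream of 1700027F06Rik, an uncharacterised transcript (distances upstream of a TSS are printed as negative), had the lowest ratio. It spans chr6:124375169-124376169 in mm10 and is intergenic. Its H3K27ac was 514 and 456 tags per 10 M with DMSO and Veh and 22.7 and 19.4 with DMSO and KLA, a log2 fold change of -4.51 ± 0.26 (adjusted p = 1.45e-64). In flox_Cre it went from 319 and 326 to 12.3 and 33.2. The KLA and Veh libraries were far apart in both experiments. A region 31104 bp downstream of the TSS of Klf2, a zinc-finger factor of quiescent leukocytes and endothelium, had 236 and 238 with Veh and 12.3 and 17.7 with KLA (log2 fold change -4.00 ± 0.28, adjusted p = 3.79e-42). At Lyzl4 (5203 bp, intron, chr9:121635890-121636890), a gene of the lysozyme family, the DMSO Veh libraries had 243 and 249 and the DMSO KLA libraries 24.6 and 21.9 (-3.39 ± 0.26, adjusted p = 3.67e-35).

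Members with the highest signal in flox Veh are given next. The region 11907 bp downstream of the TSS of Tgif1, a corepressor of SMAD factors, had 674 and 611 tags per 10 M with DMSO and Veh and 116 and 120.3 with DMSO and KLA. The difference was -2.44 ± 0.21 (adjusted p = 5.6e-30) on the log2 scale. At Amz1 (40911 bp, intron), a metallopeptidase gene, the values were 806 and 792 against 372 and 252, a change of -1.35 ± 0.19 (adjusted p = 1.71e-11) that was under 2-fold with TMM scaling (-0.92).

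The next question was how H3K27ac at these regions stood after KLA when the HDAC3 inhibitor had been added before KLA. The median over members was 85.6 and 73.8 tags per 10 M in the 2 libraries with RGFP966 and KLA, between the 31.7 and 26.9 with DMSO and KLA and the 126 and 121 with DMSO and Veh. H3K27ac was called higher with RGFP966 than with DMSO, both with KLA, at 1385 of 1933 tested members (71.7%) and lower at 2, against 26.9% of all regions higher and 9.53% lower. The median log2 fold change was 1.34 (interquartile range 0.93 to 1.75), against 0.59 at other distal regions, of which 27.6% were called higher. The median of all tested regions was 0.39 in this comparison and 0.04 with TMM scaling, under which 970 members were called higher and 5 lower with a median of 1.01. Over all regions TMM called 4031 higher and 4742 lower, where library totals gave 6749 and 2388. DESeq2 called 1008 higher and 4 lower.

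At most members the mean with RGFP966 and KLA lay below the mean of the Veh cells. Against DMSO Veh, the RGFP966 KLA libraries were called lower at 636 members (32.9%) and higher at 16 (0.828%), against 17.9% and 12.6% of all regions, with a median of -0.71 (other distal regions 0.11). With 5 added to each mean, the ratio of DMSO KLA to DMSO Veh had a median of 0.279 (interquartile range 0.209 to 0.375) and the ratio of RGFP966 KLA to DMSO Veh a median of 0.626 (0.468 to 0.854). The second ratio was 0.8 or more at 586 members (30.3%) and below 0.4 at 293 (15.1%). Among other distal regions it was 0.8 or more at 72.4%. Both ratios share the DMSO Veh libraries, and the comparisons of RGFP966 with DMSO and of KLA with Veh share the DMSO KLA libraries.

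**Figure D2:**
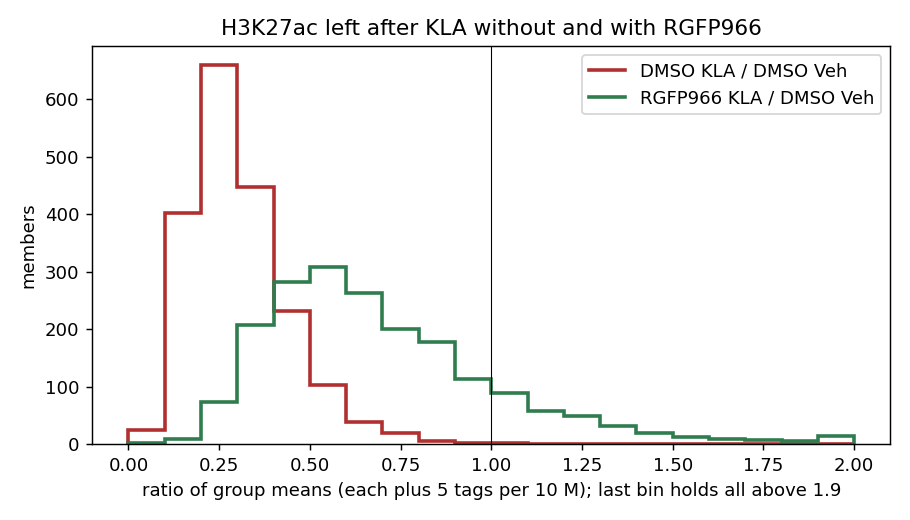
Number of members (y axis) by the ratio of group means of H3K27ac, each plus 5 tags per 10 M (x axis, last bin open), for DMSO KLA over DMSO Veh (red) and RGFP966 KLA over DMSO Veh (green). The red line peaks at a low ratio (median 0.279), and the green line is broader and lies to its right (median 0.626), with 586 members at 0.8 or more.

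At the named members the RGFP966 libraries stood at different levels relative to Veh and KLA. A region 13453 bp downstream of the TSS of Cd300a, an inhibitory receptor of leukocytes (chr11:114902994-114903994), had 220.1 and 213 tags per 10 M with DMSO and Veh, 29.8 and 19.4 with DMSO and KLA and 249 and 229 with RGFP966 and KLA. The RGFP966 libraries were thus at or above the Veh level, and the log2 fold change against DMSO KLA was 3.25 ± 0.26 (adjusted p = 2.86e-32). A region in an intron of Cdc42ep3, an effector of the GTPase Cdc42, had 91.4 and 75, 6.48 and 7.57 and 112 and 70.5 in the same order, with 3.69 ± 0.34 (adjusted p = 1.08e-23). At both, the RGFP966 libraries did not overlap the DMSO KLA libraries.

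At 1700027F06Rik (-11183 bp) the RGFP966 libraries had 197 and 169, above the DMSO KLA libraries (3.10 ± 0.26, adjusted p = 5.43e-28) and below the DMSO Veh libraries given above. Klf2 (31104 bp) also lay between, at 109 and 104 (2.85 ± 0.29, adjusted p = 2.62e-19). Near Zfp572 (-104382 bp) the order was 359.6 and 364 with Veh, 39.5 and 26.1 with KLA and 209 and 199 with RGFP966 and KLA (2.61 ± 0.25, adjusted p = 5.34e-23). An intronic region near Scgb1a1 (16329 bp) rose by 2.77 ± 0.25 (adjusted p = 5.44e-25).

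Other members were at the KLA level or below it. At Amz1 the RGFP966 libraries had 315 and 309, within the range of the DMSO KLA libraries (-0.01 ± 0.19, adjusted p = 0.983). The 2 members called lower with RGFP966 were near Per1, a repressor of the circadian clock (-3759 bp), and Zfp825 (-69966 bp). Per1 had 67.3 and 77.6 with Veh, 31.1 and 42.9 with KLA and 12.5 and 18.3 with RGFP966 and KLA (-1.25 ± 0.33, adjusted p = 0.000448). With DMSO its decrease with KLA was not called. Zfp825 had 137 and 124, 31.1 and 49.6 and 17.1 and 21 (-1.06 ± 0.31, adjusted p = 0.00152). Neither call held in every fit with 1 library left out, since without RGFP966 KLA replicate 1 the change was -1.0 (2-fold was not passed) for Per1 and -0.92 for Zfp825, and without DMSO KLA replicate 2 it was -0.70 for Zfp825.

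**Figure D3:**
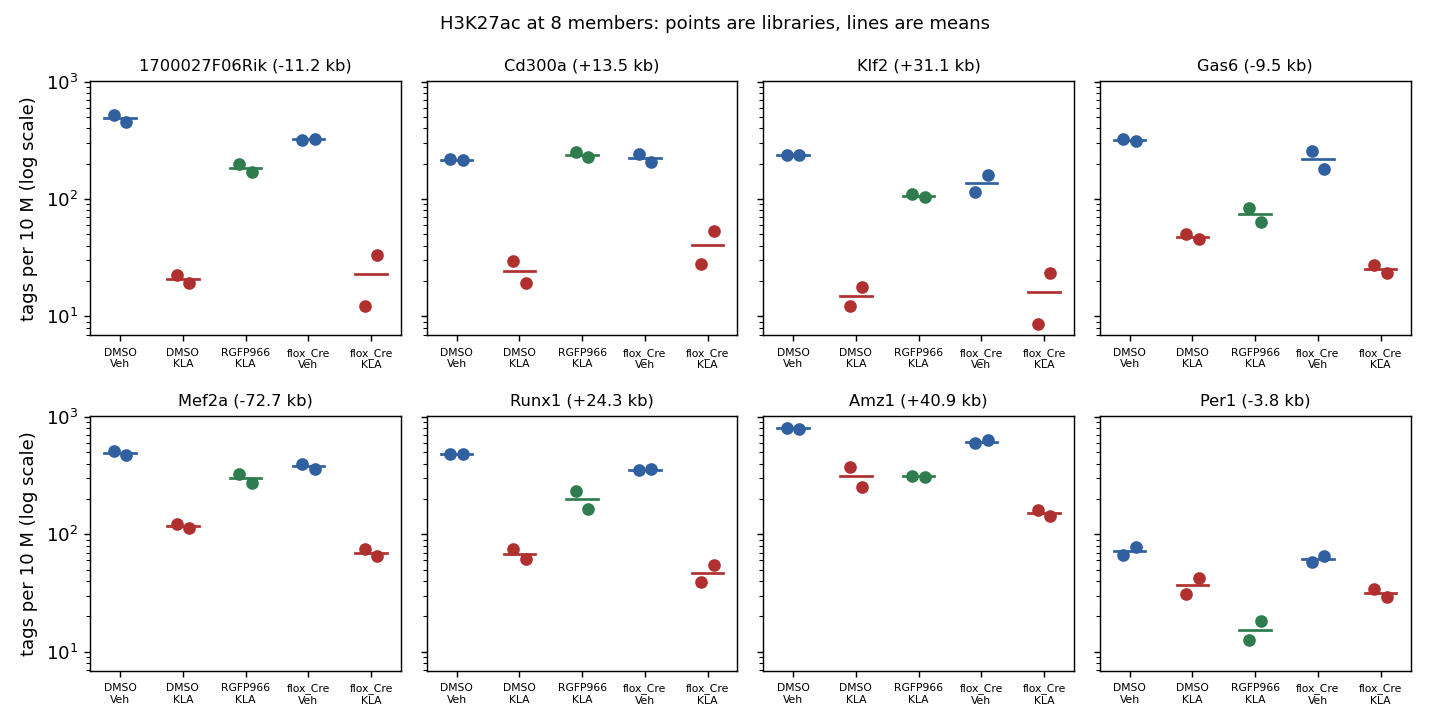
H3K27ac in tags per 10 M (y axis, log scale) at 8 members by group (x axis), where each point is a library, lines are means and the distance to the TSS of the nearest gene is given in kb. The DMSO KLA points lie below the DMSO Veh points in all 8 panels, and the RGFP966 points reach the Veh level at Cd300a, lie between at 1700027F06Rik, Klf2, Gas6, Mef2a and Runx1, match the KLA level at Amz1 and fall below it at Per1.

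The members called higher with RGFP966 were compared with the 546 not called on features the test had not used. A NCoR peak lay within 500 bp of 88.3% of the former and 83.3% of the latter, and a HDAC3 peak of 85.6% and 80.6%. They lay farther from genes (median 30197 against 21870 bp), were less often in introns (45.8% against 55.3%) and had a lower flox Veh median (119 against 152). The median log2 fold change of NCoR with KLA was -1.05 and -0.94, of HDAC3 -0.78 and -0.73 and of PU.1 -1.02 and -0.86. These are descriptions, and no difference between the 2 sets was tested.

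Deletion of NCoR was then compared at the same regions. With Veh, H3K27ac was called higher in NKO than in WT at 9 of 896 regions near members (1.00%) and lower at 0, against 0.973% and 0.027% of all tested regions, with a median of 0.34 (other distal regions 0.37, all regions 0.30). With TMM scaling the median was 0.03, and both TMM and DESeq2 called 0 in either direction. By library totals, where the median of all regions was also above 0, an unadjusted p under 0.05 was found for 107 regions above 0 and 4 below. Counts at an unadjusted p, here and below, were not made over all regions. Leaving out NKO Veh replicate 1 or either WT Veh replicate also gave 0 calls. With KLA, 9 regions (1.00%) were called higher and 7 (0.781%) lower, against 0.4% and 0.389% of all regions, with a median of 0.04. TMM called 12 higher and 7 lower, DESeq2 6 and 6, and the share called higher was between 0.336% and 0.559% when single libraries were left out. The KLA response of NKO minus that of WT was called below 0 at 2 regions (0.223%) and above 0 at 0, against 0.67% and 0.027% of all regions. The medians of the difference were -0.26 by library totals (all regions -0.34) and 0.09 with TMM scaling, so its sign depended on the scaling. At an unadjusted p under 0.05 it was below 0 at 78 regions and above 0 at 25, TMM and DESeq2 called 0, and no more than 0.345% was called with any library left out.

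Of the regions called with Veh, Klf9, a Krüppel-like factor gene, had 12.6 and 9.68 tags per 10 M in WT and 32.4 and 44.1 in NKO (-6207 bp, 1.79 ± 0.44, adjusted p = 0.0224). The groups did not overlap. Sptlc2, a subunit of serine palmitoyltransferase, had 44.1 and 50.9 in WT and 128 and 92.3 in NKO (1.20 ± 0.25, adjusted p = 0.00416). The other named calls were near 4922502H24Rik (1.02 ± 0.24, adjusted p = 0.0144), Cirbp (1.37 ± 0.36, adjusted p = 0.0344) and Htra3 (1.46 ± 0.39, adjusted p = 0.0372). With TMM scaling none of these 5 was called (log2 fold changes 0.71 to 1.49), and each lost its call without WT Veh replicate 1 and without WT Veh replicate 2.

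Of the regions called with KLA, the region near Gdap10 went from 29 and 22.4 to 4.40 and 2.76 in WT (-2.80 ± 0.52, adjusted p = 9.75e-05). In NKO the same region went from 35.4 and 22.1 to 16.5 and 31.9 (-0.25 ± 0.41, adjusted p = 0.738). The NKO KLA libraries were above the WT KLA libraries (2.70 ± 0.53, adjusted p = 0.0032), and with DMSO the region went from 361 and 389.9 to 51.8 and 51.3 with KLA and stood at 146 and 98.2 with RGFP966 and KLA. Also higher in NKO were regions near Agap1 (1.36 ± 0.29, adjusted p = 0.00898), Proser2 (1.86 ± 0.44, adjusted p = 0.0193) and Hey1, a target of Notch signalling (1.54 ± 0.36, adjusted p = 0.0202). Lower in NKO were regions near Gm6994 (-2.44 ± 0.48, adjusted p = 0.0034), Tmem236 (-2.83 ± 0.64, adjusted p = 0.0129), Gas6, a ligand of the TAM receptors that clear dying cells (-1.71 ± 0.40, adjusted p = 0.0177), Adora3, an adenosine receptor (-2.46 ± 0.58, adjusted p = 0.0208), and Gm19510 (-1.48 ± 0.38, adjusted p = 0.0321). Each of these 9 lost its call in at least 1 fit with a KLA library left out, for example Gm6994 without NKO KLA replicate 2 (log2 fold change -1.84, adjusted p = 0.129).

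Most members had peaks of the factors nearby, though for each factor a smaller share than among other distal regions. Peaks were merged over conditions, so a peak does not say in which condition the factor was bound. A p300 peak had its centre within 500 bp of 1768 members (91.4% against 93.5% of other distal regions), a PU.1 peak of 1726 (89.2% against 90.5%), a NCoR peak of 1679 (86.8%, 95% exact binomial interval 85.2 to 88.2, against 91.9%) and a HDAC3 peak of 1627 (84.1% against 91.1%). PGC1β peaks lay near 1468 (75.9% against 80.1%), Fosl2 peaks near 1442 (74.5% against 79.3%), p65 peaks near 1435 (74.2% against 86.2%) and ERK1 peaks near 1203 (62.2% against 72.6%). NCoR and HDAC3 together were near 1561 members (80.7% against 89.1%), both with PGC1β near 1300 (67.2% against 75.7%), all 8 factors near 829 (42.8% against 56.1%) and none near 10 (0.517% against 1.01%). PGC1β peaks of the DMSO table lay near 1630 members (84.2% against 89.5%).

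NCoR and HDAC3 were lower with KLA at many of these regions. The median NCoR signal near members was 82.4 and 98.9 tags per 10 M with Veh and 43.7 and 43.6 with KLA, with no overlap. At 799 of 1649 distinct peaks (48.5%) NCoR was called lower and at 19 (1.15%) higher, against 16.7% and 23.4% of all peaks, with a median log2 fold change of -1.0 (other distal regions -0.37). Leaving out KLA replicate 1 or 2 gave 31.9% and 29.1%. The median HDAC3 signal was 102 and 103 with Veh and 48.6 and 72.0 with KLA. HDAC3 was called lower at 605 of 1595 peaks (37.9%) and higher at 17 (1.07%), against 11.3% and 27.5% of all peaks, with a median of -0.76 (other distal regions -0.17, TMM -1.03). The HDAC3 KLA replicate 2 library was the shallowest of its table (5.69 M tags) and had 46.5% of its tags in peaks against 31.2% in the lowest library. Without it 52.7% of the peaks were called lower, and without Veh replicate 1 or 2 the shares were 12.2% and 11.9%.

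Lyzl4 had the NCoR peak with the lowest p, which went from 253 and 320.1 to 15.4 and 14.5 tags per 10 M (-4.25 ± 0.26, adjusted p = 2.34e-05). At Klf4 (-209032 bp), a factor of myeloid differentiation, NCoR went from 376 and 345 to 54.3 and 49.8 (-2.79 ± 0.20, adjusted p = 2.78e-05). At 1700027F06Rik it went from 198 and 235 to 6.48 and 8.99 (-4.77 ± 0.31, adjusted p = 2.34e-05). At all 3 peaks the KLA libraries lay far below the Veh libraries. The exception with the lowest p was a peak in an intron of Kif3c, a kinesin motor gene, where NCoR went from 65.7 and 84.7 to 294 and 274 (1.91 ± 0.21, adjusted p = 0.000137). HDAC3 at the same place went from 93.1 and 85.2 to 265 and 362 (1.81 ± 0.38, adjusted p = 1.25e-05), although H3K27ac of this member was 253 in flox Veh and 88.2 in flox KLA. The HDAC3 call there was lost without either Veh replicate. The lowest p for HDAC3 was at Mvb12b, with 182 and 164 against 6.45 and 0.

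PU.1 and p300 were lower at many members as well. The PU.1 medians were 139 and 143 with Veh and 67.4 and 68.8 with KLA, and 812 of 1697 peaks (47.8%) were called lower and 1 (0.0589%) higher, against 21.7% and 4.53% of all peaks. The median log2 fold change was -0.97 (other distal regions -0.38, all peaks -0.41), and TMM scaling, with all peaks at 0.00, gave 438 lower, 5 higher and a median of -0.55 (all peaks 5365 lower and 4629 higher, against 11020 and 2296). At Rnf150 PU.1 went from 336 and 377 to 60.2 and 50.3 (-2.68 ± 0.11, adjusted p = 5.5e-48), and at Lyzl4 from 266 and 280.1 to 44.5 and 46.5 (-2.58 ± 0.12, adjusted p = 1.2e-42). The 1 peak called higher was at Cdca8, a subunit of the chromosomal passenger complex, with 31.0 and 34.2 against 66.1 and 64.4 (1.00 ± 0.20), a call at the edge of 2-fold that was lost without KLA replicate 1 (0.98). The p300 medians were 67.4 and 61.1 with Veh and 39.4 and 37.8 with KLA, and 691 of 1734 peaks (39.9%) were called lower and 57 (3.29%) higher, against 12.9% and 42.1% of all peaks. The median was -0.80 (other distal regions 0.09, all peaks 0.65) and with TMM scaling -1.32, with 1118 lower and 31 higher (all peaks 16245 and 22267, against 8747 and 28597). At Slc7a13 p300 went from 317 and 242 to 24.6 and 29.2 (-3.38 ± 0.20, adjusted p = 1.52e-09), and at Wincr1, in the other direction, from 55.8 and 36.1 to 147 and 188 (1.86 ± 0.23).

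p65 stood apart from the other factors, and its direction at members depended on the scaling. The medians were 38.5 and 43.8 with Veh and 40.1 and 43.1 with KLA, so the libraries overlapped. By library totals 164 of 1395 peaks (11.8%) were called lower and 182 (13%) higher, against 5.43% and 57.0% of all peaks, with a median of 0.09 beside 1.46 for all peaks and 0.97 near other distal regions. With TMM scaling, which moved the median of all peaks to 0.24, 738 were called lower and 12 higher with a median of -1.14, and DESeq2 called 725 and 11. Over all peaks TMM called 11205 lower and 14540 higher, against 2859 and 29981. Without KLA replicate 1 or 2 the share called lower by library totals was 3.44% and 3.66%. At Gm11747 p65 went from 91.9 and 90.4 to 7.35 and 5.47 (-3.81 ± 0.40, adjusted p = 1.83e-05), and at Mir6539 from 11.4 and 21.4 to 118 and 146 (3.01 ± 0.36, adjusted p = 4.07e-05). At Per1 p65 went from 37.6 and 37.3 to 148 and 159.

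The counts of calls for Fosl2, PGC1β and ERK1 depended on single libraries. The Fosl2 medians were 88.9 and 69.2 with Veh and 20.9 and 51.4 with KLA, and 156 of 1404 peaks (11.1%) were called lower and 0 higher, against 4.19% and 11.4% of all peaks, with a median of -1.12 (other distal regions -0.16). The Fosl2 KLA replicate 1 library held 4.30 M tags, 16.4% of them in peaks against 32.3% in the highest library. The share called was 21% without it, 58.9% without KLA replicate 2 and 0 without either Veh replicate, and TMM called 414 lower and 2 higher (DESeq2 529 and 1). At 1700027F06Rik Fosl2 went from 258 and 159 to 0 and 2.34, a call lost without either Veh replicate (adjusted p = 0.0556 and 0.0751).

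The PGC1β medians were 35.8 and 37.2 with Veh and 26.2 and 20.0 with KLA. PGC1β was called lower at 359 of 1437 peaks (25%) and higher at 6 (0.418%), against 6.35% and 16.4% of all peaks, with a median of -0.67 (other distal regions 0.07). The share was 38.5% without KLA replicate 1, and 8.42% and 6.96% without Veh replicate 1 or 2. In the table with DMSO the medians were 43.0 and 52.5 with Veh and 39.5 and 37.2 with KLA, and 96 of 1594 peaks (6.02%) were called lower and 16 (1.00%) higher, against 1.23% and 16.4% of all peaks. Its median was -0.38 beside 0.45 for all peaks and 0.33 near other distal regions, and TMM called 224 lower and 0 higher with a median of -0.82. Without Veh replicate 1 or 2 the share called lower was 2.70% and 1.07%. At Klf4 (-209032 bp) PGC1β in the DMSO table went from 123 and 176 to 9.87 and 14.9 (-3.54 ± 0.46, adjusted p = 6.76e-06).

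The ERK1 medians were 44.1 and 41.6 with Veh and 28.3 and 25.9 with KLA. ERK1, a kinase of the MAP kinase pathway, was called lower at 115 of 1170 peaks (9.83%) and higher at 6 (0.513%), against 2.53% and 10.3% of all peaks, with a median of -0.72 (other distal regions 0.02). Without KLA replicate 1 or 2 the share was 5.56% and 3.25%. The lowest p was again at 1700027F06Rik, with 86.5 and 65.9 against 1.23 and 4.08 (-4.79 ± 0.68, adjusted p = 0.00512).

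**Figure D4:**
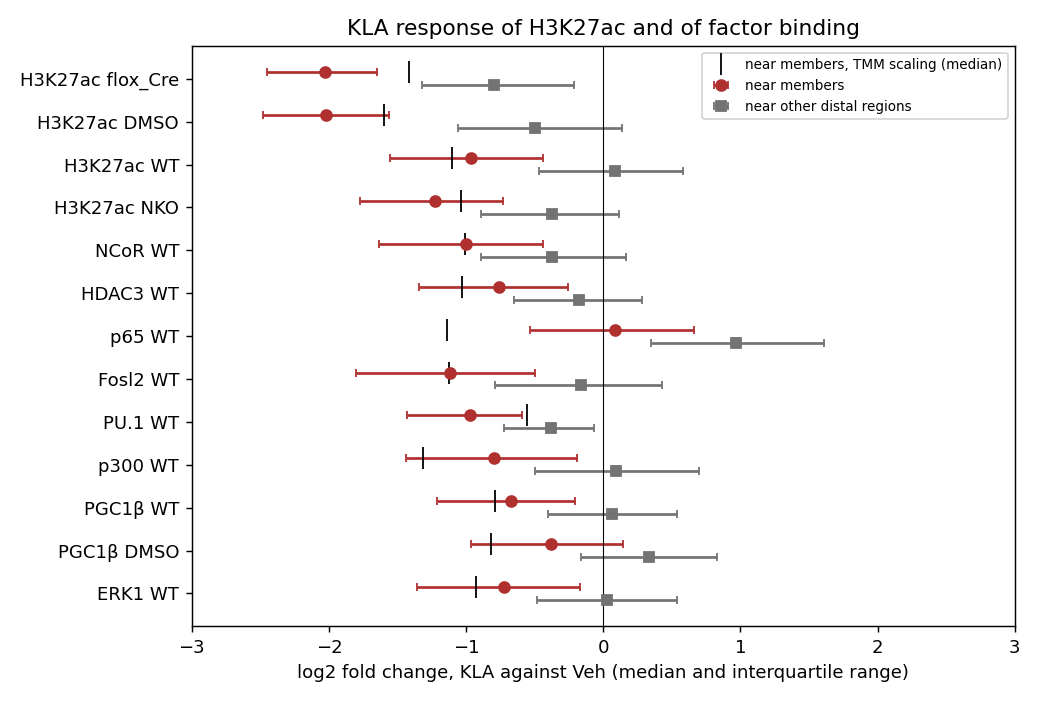
Median (points) and interquartile range (bars) of the log2 fold change of KLA against Veh (x axis) for H3K27ac in 4 settings and for 9 factor tables (y axis), near members (red circles) and near other distal regions (grey squares), with black ticks for the median near members under TMM scaling. The red circle lies left of the grey square in every row, between -2.03 and 0.09, and for p65 the tick lies at -1.14 while the circle lies at 0.09.

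The genes nearest to the members were grouped by role. Of 37 listed factors of macrophage lineage and identity, 12 were nearest to 34 members (1.76% of members against 1.16% of other distal regions): Mef2a 8, Klf4 6, Tcf4, Ets1, Klf2 and Bach2 3 each, Fli1 and Maf 2 each, and Meis1, Runx1, Runx2 and Mef2c 1 each. Of these 34, 32 were called lower with KLA in flox_Cre, 33 with DMSO, and 32 were called higher with RGFP966. Among all members tested 97.0%, 93.9% and 71.7% were called in the same comparisons, and among all regions 32.5%, 28.1% and 26.9%, so the counts with KLA in this and the following lists are near the share of all members and say nothing particular of a list. The median log2 fold changes were -2.07 with KLA and 1.62 with RGFP966. For comparison, the medians over all tested members were -2.02 and 1.34.

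Mef2a, a MADS-box factor that binds macrophage enhancers, had 8 members between -53449 and -91932 bp from its TSS, of which the windows at -72738 and -73013 bp overlap and share peaks. At -87204 bp (chr7:67459562-67460562) the values were 267 and 262 with DMSO and Veh, 49.9 and 32 with DMSO and KLA (-2.67 ± 0.24, adjusted p = 1.19e-26) and 174 and 154 with RGFP966 and KLA (1.98 ± 0.24, adjusted p = 3.21e-14). In WT of the NCoR experiment the same place had 30.3 and 34.6 with Veh and 30.8 and 26.2 with KLA (-0.19 ± 0.34, adjusted p = 0.773), and the groups overlapped. At -53449 bp they did not, and H3K27ac fell from 50.4 and 49.4 to 12.6 and 19.3 (-1.65 ± 0.34, adjusted p = 0.000397). All 8 were called higher with RGFP966, by 1.16 to 2.45, but 3 of them (-72738, -73013 and -89167 bp) were at or under 2-fold with TMM scaling (1.00, 0.95 and 0.83).

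Klf4 had 6 members, all intergenic and between -197993 and -431690 bp. At -197993 bp the DMSO Veh libraries had 111 and 95.1, the DMSO KLA libraries 38.2 and 26.9 and the RGFP966 KLA libraries 128 and 92.8 (1.74 ± 0.26, adjusted p = 3.92e-10), so that RGFP966 reached the Veh level. Runx1, a master factor of blood formation, had 1 member in an intron (24311 bp), with 482 and 485, 74.5 and 61.4 and 236 and 165 in the same order. Its changes were -2.82 ± 0.22 (adjusted p = 4.46e-35) with KLA and 1.55 ± 0.22 (adjusted p = 7.63e-11) with RGFP966. A Klf2 region at -23164 bp was the 1 of the 34 not called lower with DMSO and KLA, with a change of -0.76 ± 0.21, but it passed 2-fold without DMSO KLA replicate 1 (-1.14, adjusted p = 8.13e-06).

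Receptors of the surface and of chemotaxis (57 listed) were nearest to 15 members (0.775% against 1.18%), which were Cd300a 5, Cxcr4 3, Adora3 3, Ifngr1 2, and Adgre4 and Tlr4 1 each. All 15 were called lower with KLA in flox_Cre and with DMSO, and 13 higher with RGFP966, against 97.0%, 93.9% and 71.7% of all members. Ifngr1, a subunit of the interferon-gamma receptor, had 338 and 311, 112 and 123 and 324 and 263 (-7684 bp). Its RGFP966 change of 1.32 ± 0.21 was 0.99 with TMM scaling. A second Cd300a region, at -5102 bp, had 442 and 418, 96.5 and 85 and 413 and 351, and its change of 2.07 ± 0.21 (adjusted p = 1.3e-19) held with TMM scaling.

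Regulators of GTPases and of actin (106 listed) formed the longest group, with 47 members near 27 genes (2.43% against 1.78%). All 47 were called lower in flox_Cre, 45 with DMSO, and 37 were called higher with RGFP966, against 97.0%, 93.9% and 71.7% of all members (medians -2.08 with DMSO and KLA and 1.51 with RGFP966). Rgs2 and Cdc42ep3 had 4 members each. At Rgs2, a GTPase-activating protein of G protein alpha subunits (86373 bp), the values were 704 and 778, 112 and 69.8 and 299 and 257. The changes were -3.01 ± 0.21 (adjusted p = 1.11e-42) with KLA and 1.60 ± 0.21 (adjusted p = 2.33e-12) with RGFP966. Fgd3 and Fgd4, exchange factors of Cdc42, rose with RGFP966 by 1.54 ± 0.22 (adjusted p = 3.37e-11) and 1.29 ± 0.23 (adjusted p = 9.62e-08), the latter 0.96 with TMM scaling.

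The TGF-β and SMAD pathway (22 listed) had 10 members near Tgif1 (5), Smad1 (2), Tgfbi (2) and Ski (1), of which 9 were called lower in flox_Cre, 9 with DMSO, and 7 higher with RGFP966, against 97.0%, 93.9% and 71.7% of all members. Smad1, which carries BMP signals, had 98 and 96.8, 26.6 and 32 and 100.0 and 74.5 at -48028 bp (1.58 ± 0.27, adjusted p = 4.23e-08). Tgif1 at 11907 bp rose with RGFP966 to 253 and 229.7, by 1.03 ± 0.21, which was 0.70 with TMM scaling. Ski, a repressor of SMAD factors, did not pass the test (0.41 ± 0.20, adjusted p = 0.0617). Lysosomal and lipid genes (38 listed) had 10 members near 9 genes (0.517% against 0.788%), all called lower in both settings and 8 higher with RGFP966, against 97.0%, 93.9% and 71.7% of all members. Lipa, lysosomal acid lipase, had 588 and 591, 124 and 92.6 and 299 and 211, with a RGFP966 change of 1.22 ± 0.21 that was 0.88 with TMM scaling.

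Cell cycle genes and Myc (23 listed) had 5 members near Myc (2), Mki67 (2) and E2f8 (1), all called lower in both settings and all called higher with RGFP966, against 97.0%, 93.9% and 71.7% of all members. Myc at 14444 bp had 83.9 and 62.8, 39.5 and 26.1 and 119.8 and 112, above the Veh level with RGFP966 (1.80 ± 0.26, adjusted p = 1.06e-10). Its decrease with KLA of -1.14 ± 0.27 on the log2 scale was under 2-fold with TMM scaling (-0.72) and without DMSO KLA replicate 2 (-0.89). Mki67, a marker of dividing cells (-197723 bp), had 358 and 320.1, 41.4 and 37.9 and 119.8 and 117. Clock genes (19 listed) had Per1 and Nr1d1, which encodes REV-ERBα, a nuclear receptor that recruits NCoR. Of these 2 members, 1 was called lower in flox_Cre, 1 with DMSO and 1 higher with RGFP966. Among all members 97.0%, 93.9% and 71.7% were called. Per1 was not called lower with KLA in either setting. Nr1d1 had 164 and 141, 40.1 and 21.9 and 116 and 111 (1.84 ± 0.26, adjusted p = 4.78e-11), the opposite direction to Per1.

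Inflammatory genes known to be induced by KLA were nearly absent. Of 46 listed, 1 (Nfkbiz) was nearest to 1 member (0.0517% of members), while 35 other distal regions (0.476%) were nearest to genes of the list. Members were chosen for lower H3K27ac with KLA and the list for induction by KLA. The small share thus partly follows from the choice and is a description. The Nfkbiz region (88174 bp) was weak, with 22.4 and 26.2 with DMSO and Veh and 16.2 and 16 with DMSO and KLA (-0.59 ± 0.38, adjusted p = 0.193), and it was not called with RGFP966.

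Promoters of the nearest genes were measured in the same tables. Of 969 tested promoter regions, which belonged to 679 genes, 342 (35.3%) were called lower with DMSO and KLA and 28 (2.89%) higher. Promoters of genes nearest to other distal regions only were called lower at 13.7% and higher at 6.95%, and all promoters at 14.7% and 5.32%. In flox_Cre 397 of 987 promoter regions (40.2%) were called lower and 12 (1.22%) higher. The shares were 19.6% and 4.15% for other distal regions only, and 19.3% and 3.23% for all promoters. In WT 53 of 879 promoter regions (6.03%) were called lower and 18 (2.05%) higher, against 2.19% and 7.21%, and 2.52% and 5.26% for all promoters. In each setting a smaller share of promoters than of members was called lower. Members, unlike promoters, were chosen for lower H3K27ac with KLA, so this difference partly follows from the choice and is a description. With RGFP966 157 promoter regions (16.2%) were called higher and 126 (13%) lower, against 5.92% and 18.5% for other distal regions only. Over all promoters the shares were 6.56% and 23.2%.

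Sequence motifs were counted in the central 200 bp on both strands. The letters searched were GAGGAAGT for PU.1, TTGCNNAA for C/EBP, TGANTCA for AP-1, TCACGTGA or TCATGTGA for MiT/TFE, TGTGGTT for RUNX, TGCTGAC for MAF, AGGTCA for nuclear receptors, GGGNGTGG for KLF and GCGGGAA for E2F, where N is any base, with degenerate sites for NFκB, IRF and MEF2, and the MAF letters can overlap an AP-1 or nuclear receptor match. The median GC content was 49.5% in members and in other distal regions and 52% over all regions.

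AP-1 was the most frequent, in 27.1% of members (95% exact binomial interval 25.1 to 29.1), 26.2% of other distal regions and 15.2% of all regions. PU.1 was in 16.4% (14.8 to 18.1) against 14.6% (all regions 11.1%), the nuclear receptor site in 15.7% (14.1 to 17.4) against 13.8% (11.1%) and C/EBP in 11.7% against 13.2% (10.1%). RUNX was in 11.8% (10.4 to 13.4) against 8.37% (6.94%). NFκB was in 8.06% (6.89 to 9.37) against 11.4% (12.3%), and IRF in 1.55% (1.05 to 2.21) against 4.04% (2.72%). For RUNX, NFκB, IRF and, by less, PU.1 and the nuclear receptor site the share of other distal regions lay outside the interval of the members. In the central 400 bp this held only for RUNX, NFκB and IRF among these. There PU.1 was in 18.6% (16.8 to 20.4) against 17.2%, and the nuclear receptor site in 25.6% (23.7 to 27.6) against 24.7%. KLF was in 7.65% against 8.14% (10.2%), MAF in 6.77% against 7.22% (5.19%), MEF2 in 4.08% against 3.89% (3.05%), MiT/TFE in 1.76% against 2.37% (1.67%) and E2F in 0.982% against 1.05% (2.71%). No searched motif was found in 535 members (27.6% against 27.5%, all regions 37.6%).

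**Figure D5:**
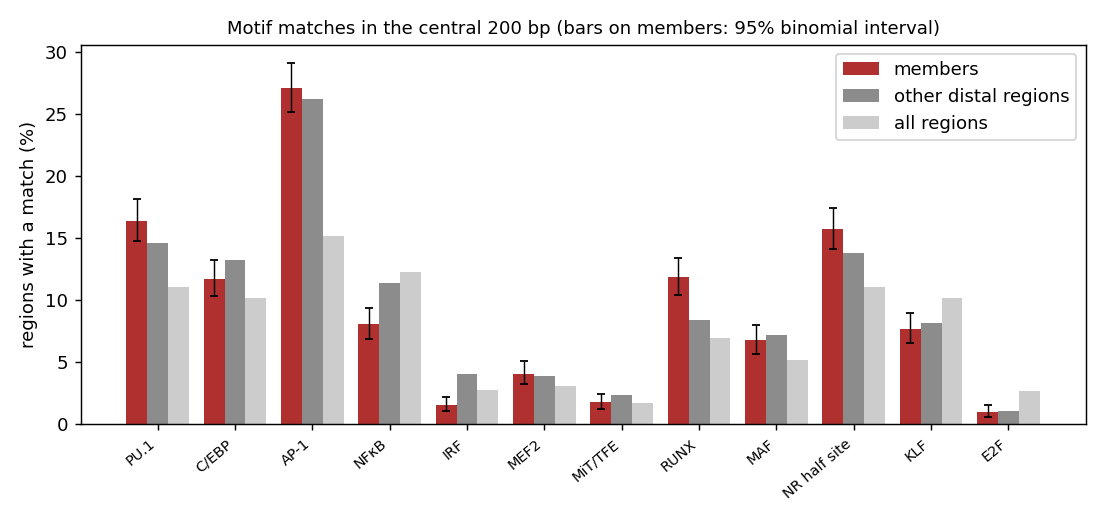
Percent of regions with at least 1 match in the central 200 bp (y axis, from 0) for 12 motifs (x axis), in members (red, with 95% exact binomial intervals), other distal regions (dark grey) and all regions (light grey). RUNX is higher in members (11.8% against 8.37%), NFκB (8.06% against 11.4%) and IRF (1.55% against 4.04%) are lower, and AP-1 is the most frequent at 27.1%.

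Facts of the libraries bear on all of this. Library totals were 4.30 to 21.5 M tags (H3K27ac 11.5 to 19.6 M), with 5.55% to 52.8% of them in the regions of their tables. Since values are tags of ChIP material from whole cultures, fewer cells with an acetylated region and less acetylation per cell cannot be told apart.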

How the data were processed

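ChIP-seq of mouse BMDMs was analysed from tables of raw counts deposited by the authors, which hold HOMER tags per region and library, not normalized, counting no more than 3 tags at a position. Bowtie2 alignment to mm10 is stated in the labels, and versions were not given in the sources used here. Cells were fixed with formaldehyde for H3K27ac, and with disuccinimidyl glutarate before formaldehyde for the factors. H3K27ac was counted over open chromatin of Veh cells, in windows of 1000 bp for the Pgc1b and RGFP966 tables (the same 29767 regions) and in narrower regions for WT and NKO. Of the distal regions, 88.0% had a GENCODE start within 50 bp of the listed distance and 0 lay past a chromosome end.

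Counts were divided by the library totals of the headers and multiplied by 10 M. Regions with 16 or more tags (factors, 4) in at least 1 library were tested with edgeR 4.0.16 (quasi-likelihood, R 4.3.3), with DESeq2 1.42.0, TMM, no filter, a replicate block and single libraries left out as alternatives. Regions and peaks were matched when their centres lay within 500 bp. The flox comparison of KLA with Veh chose the members and was not used as a result. The flox_Cre libraries were not compared with flox by a test. On counts simulated for some of the tables with a fixed spread between replicates, the fits gave the direction of nearly all changes put in. That spread was not matched to the real libraries, so the share of real changes recovered is not known from it. Replicate numbers did not pair libraries (correlations of deviations -0.027 to 0.051 over 26 pairs of groups), and no 2 libraries agreed within sampling noise (lowest chi-square per feature 1.31). Replicate correlations were 0.719 to 0.980. Extracts are described as biological replicates.

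Members, gene lists and tests were chosen with earlier results of these data known. Named regions were the 10 lowest ratios and 10 highest flox Veh means, 3 on each side of the threshold, up to 5 called members per direction for RGFP966 and NKO, up to 4 per gene list, the called peak with the lowest p per factor and direction, and the 5 genes with the most members. Regions of the lists outside this rule are counted only, and a few results are not reported here. Intervals cover counting error over members only and treat members as independent, although 135 stretches held overlapping windows. Reads carry no molecular identifiers.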

Additional observations from a re-analysis of the deposited data

Results flagged for a closer look

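Regions near 2 genes were marked because the KLA response of H3K27ac differed between NKO and WT in a test of the difference itself (the interaction term in edgeR's quasi-likelihood test with Benjamini-Hochberg adjustment). Near Tmem236 (-8708 bp) H3K27ac, in tags per 10 M, was 30.9 and 42.3 in WT Veh, 14.5 and 11.7 in WT KLA, 47.2 and 34.2 in NKO Veh and 3.19 and 0 in NKO KLA. The KLA log2 fold change was -1.48 ± 0.42 (adjusted p = 0.0113) in WT and -4.45 ± 0.57 (adjusted p = 1e-07) in NKO, a difference of -2.97 ± 0.75 (adjusted p = 0.0373). It was -2.63 (adjusted p = 0.169) with TMM scaling and -2.7 (adjusted p = 0.167) by DESeq2.

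Near Sptlc2 (-19683 bp) the values were 44.1 and 50.9 in WT Veh, 42.8 and 39.3 in WT KLA, 128 and 92.3 in NKO Veh and 42.5 and 27.1 in NKO KLA. The KLA log2 fold change was -0.21 ± 0.27 (adjusted p = 0.652) in WT and -1.64 ± 0.26 (adjusted p = 6.12e-06) in NKO, a difference of -1.42 ± 0.37 (adjusted p = 0.0446). It was -1.07 (adjusted p = 0.284) with TMM scaling and -1.09 (adjusted p = 0.329) by DESeq2. In the fits without 1 library, 6 left each of these 2 differences above an adjusted p of 0.05.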

How the results depend on the processing

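No call at a named region or peak reversed under an alternative. The balance of lower and higher calls for p65 and the sign of the median difference of the KLA responses changed with the scaling, as given above. With a choice of members by tags in regions in place of library totals, 1171 members remained, all of them among the 1935. Shares called over these 1171, computed as an alternative added after the data were seen, were within 1.5 times those over all members in each comparison. TMM and DESeq2 moved these shares of regions near members called lower, given in this order: p65 to 52.9% and 52.0%, Fosl2 to 29.5% and 37.7%, PU.1 to 25.8% and 26%, ERK1 to 15.4% and 18.4%, p300 to 64.5% and 62.5%, and PGC1β with DMSO to 14.1% and 16.8%. Over all peaks they called lower 3027 and 3981 of 31283 for Fosl2 and 1097 and 1265 of 27931 for ERK1. For PGC1β with DMSO they called lower 1543 and 1931 of 53474. Called higher were 5933 and 5953, 2266 and 2338, and 4658 and 5015. Library totals gave 1310, 708 and 659 lower and 3558, 2884 and 8761 higher. Promoters called lower with DMSO and KLA came to 22.1% and 20.2%, alternatives that were added after the data were seen. For NKO against WT with Veh, the share called higher was 0 with TMM and with DESeq2 and 0.601% at a matching distance of 100 bp. With KLA it was 0.670% by DESeq2. For the difference of the KLA responses the share was 0 with both and 0.471% without the filter. Taking only members with a ratio of 0.3 or less gave 17.8% for Fosl2. Matching within 100 and 1000 bp put a peak near 79.2% and 89.6% of members for NCoR, 76.9% and 86.5% for HDAC3, 66.8% and 77.5% for p65, 66.5% and 77.7% for Fosl2, 80.6% and 91.6% for PU.1, 68.6% and 79.2% for PGC1β, 76.0% and 86.3% for PGC1β with DMSO, 53.7% and 66.2% for ERK1, and 84.0% and 93.5% for p300. In 400 bp in place of 200 bp, the motif shares were 18.6% for PU.1, 21.2% for C/EBP, 33.0% for AP-1, 14.8% for NFκB, 4.13% for IRF, 7.29% for MEF2, 3.05% for MiT/TFE, 16.8% for RUNX, 11.1% for MAF, 25.6% for nuclear receptors, 13.9% for KLF and 1.60% for E2F. The replicate numbers did not pair the libraries, and with a replicate block the shares were 0.670% and 0.558% for NKO above WT with Veh and with KLA, 0.112% for the difference of the KLA responses and 0.855% for Fosl2. The block changed the status of 1 of 343 named results, Sptlc2 for the difference (adjusted p = 0.0521). Leaving out 1 library at a time gave these ranges of percent called: 96.0 to 96.9 in flox_Cre, 11.3 to 18.7 in WT, 23.2 to 29.3 in NKO, 0 to 0.345 for NKO against WT with Veh, 0.336 to 0.559 with KLA, 0 to 0.345 for the difference, 90.7 to 95.1 with DMSO, 63.6 to 75.9 for RGFP966 against DMSO, 28.4 to 38.8 for RGFP966 KLA against DMSO Veh, 29.1 to 56.3 for NCoR, 11.9 to 52.7 for HDAC3, 3.44 to 14.5 for p65, 0 to 58.9 for Fosl2, 47.0 to 48.7 for PU.1, 6.96 to 38.5 for PGC1β, 3.25 to 10.8 for ERK1, 34.9 to 43.1 for p300 and 1.07 to 5.14 for PGC1β with DMSO. Of the 343 named results, which include results not called in the main fit, 282 kept their status with TMM and 61 lost their call. The counts with DESeq2 were the same. The NCoR experiment had 2 libraries per group and narrow regions of few tags, and the fold change detectable at this depth was not computed.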
